A study of Mus musculus with 9 samples.

Results

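The genes described here are 46 genes of mitosis and of the G2/M transition, the step at which a cell that has copied its DNA enters division. They were taken by gene symbol from a fixed list that leaves out the kinesins as a group, although Cenpe, which encodes the kinesin CENP-E, is among them. All 46 were found among the 21951 genes of the count table, and all 46 were among the 11295 genes with enough counts to be tested. RNA was measured in BV2 cells, an immortalised and dividing line of wild-type mouse microglia, with 3 libraries in each of 3 groups. Control cells received vehicle, 20% HP-β-CD (a cyclodextrin), and no irradiation. Irradiated cells were given the same vehicle 30 min ahead of a single X-ray dose of 10 Gy. Triol-treated cells were given 10 µM of a synthetic steroid triol (5α-androst-3β,5α,6β-triol) 30 min ahead of the same 10 Gy dose. The labels state no vehicle for the triol group, and the treatment labels of its replicates 2 and 3 read 7β and 8β where all 3 titles read 6β. Triol without irradiation is not among the groups, and the sources used here do not state the time between irradiation and RNA extraction.

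Entry into mitosis is driven by CDK1 with cyclin B, which the CDC25 phosphatases switch on by removing inhibitory phosphates. The spindle assembly checkpoint then holds the anaphase-promoting complex inactive until every kinetochore is attached to the spindle, after which CDC20 and the complex mark securin and cyclin B for destruction and separase opens cohesin. Transcripts of these genes rise late in the cell cycle, in part through FOXM1, B-MYB and the MuvB complex acting at CHR promoter elements. Promoters of many of these genes also hold CCAAT elements. Ionizing radiation is known for halting cells in G2. RNA from a whole culture does not separate the share of cells in G2 or mitosis from the amount of each transcript per cell, so these cannot be told apart in any value below.

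Total counts were 14118475 to 17705424 in the control, 13879062 to 15192203 in the irradiated and 17230866 to 18944051 in the triol libraries. All 12 microglial marker genes were tested. Their summed level per 1000000 reads of a library (RPM) was 2580 to 2740 in the control group. It was 2010 to 2080 in the irradiated group and 2010 to 2060 in the triol group. The markers were uneven, with 9214 to 14931 reads per library for Cd68. P2ry12 had only 6 to 14 reads per library, Tmem119 16 to 26 and Aif1 42 to 72. Summed neuron markers reached at most 1.11 RPM and were all at 0 in the irradiated libraries, fibroblast markers reached at most 1.37, and astrocyte markers at most 2.21. The 5 oligodendrocyte markers summed to 34.1 to 45.6 RPM over the 9 libraries. Cnp gave 412 to 638 reads per library, Mobp at most 6 and Mog at most 2. The 10 hepatocyte markers had a summed RPM of 1.09 to 2.65 in the control group and 0.922 to 2.69 in the irradiated group, and 9.03 to 10.1 in the triol group. The part of these shifts in the results below was not tested. The labels do not say that the replicates were separate cultures, so the tests rest on differences among libraries that could be technical.

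Relative to the other RNA of a library, most of the mitotic genes were higher in irradiated than in control cells. Of the 46 genes, 31 rose, 2 fell and 13 did not pass the test. Over all tested genes 22.1% were raised and 22.2% lowered, against 67.4% and 4.35% of the mitotic genes (edgeR quasi-likelihood test, Benjamini-Hochberg adjusted p under 0.05). The rises were small, with a median log2 fold change of 0.16 over the 46 genes and a range from -0.27 for Nuf2 to 0.57 for Ccnb1, where the median of all tested genes was 0.01. The estimate was above 0 for 41 of the 46 genes, or 89.1%, and for 51.1% of all tested genes. When the test asked for a change beyond 1.2-fold, 3 genes passed as raised (Ccnb1, Cdc20 and Ube2c) and 0 as lowered. Over all tested genes 5.96% were raised and 3.76% lowered, so the raised share of the 46 was near that of all genes. The count of 3 depended on the scaling, with 5 genes raised by upper quartile scaling and 6 by library size alone. All 3 irradiated libraries lay above all 3 control libraries for 28 of the genes and below them for 3 (Nuf2, Mki67 and Spc25). Over all tested genes the corresponding shares were 25.2% and 25.5%. The 46 genes together took 0.682%, 0.707% and 0.736% of all counts in the control libraries, 0.797%, 0.792% and 0.824% in the irradiated ones and 0.802%, 0.775% and 0.784% in the triol ones. These shares of the irradiated and the triol libraries all lay above those of the control libraries.

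**Figure D1:**
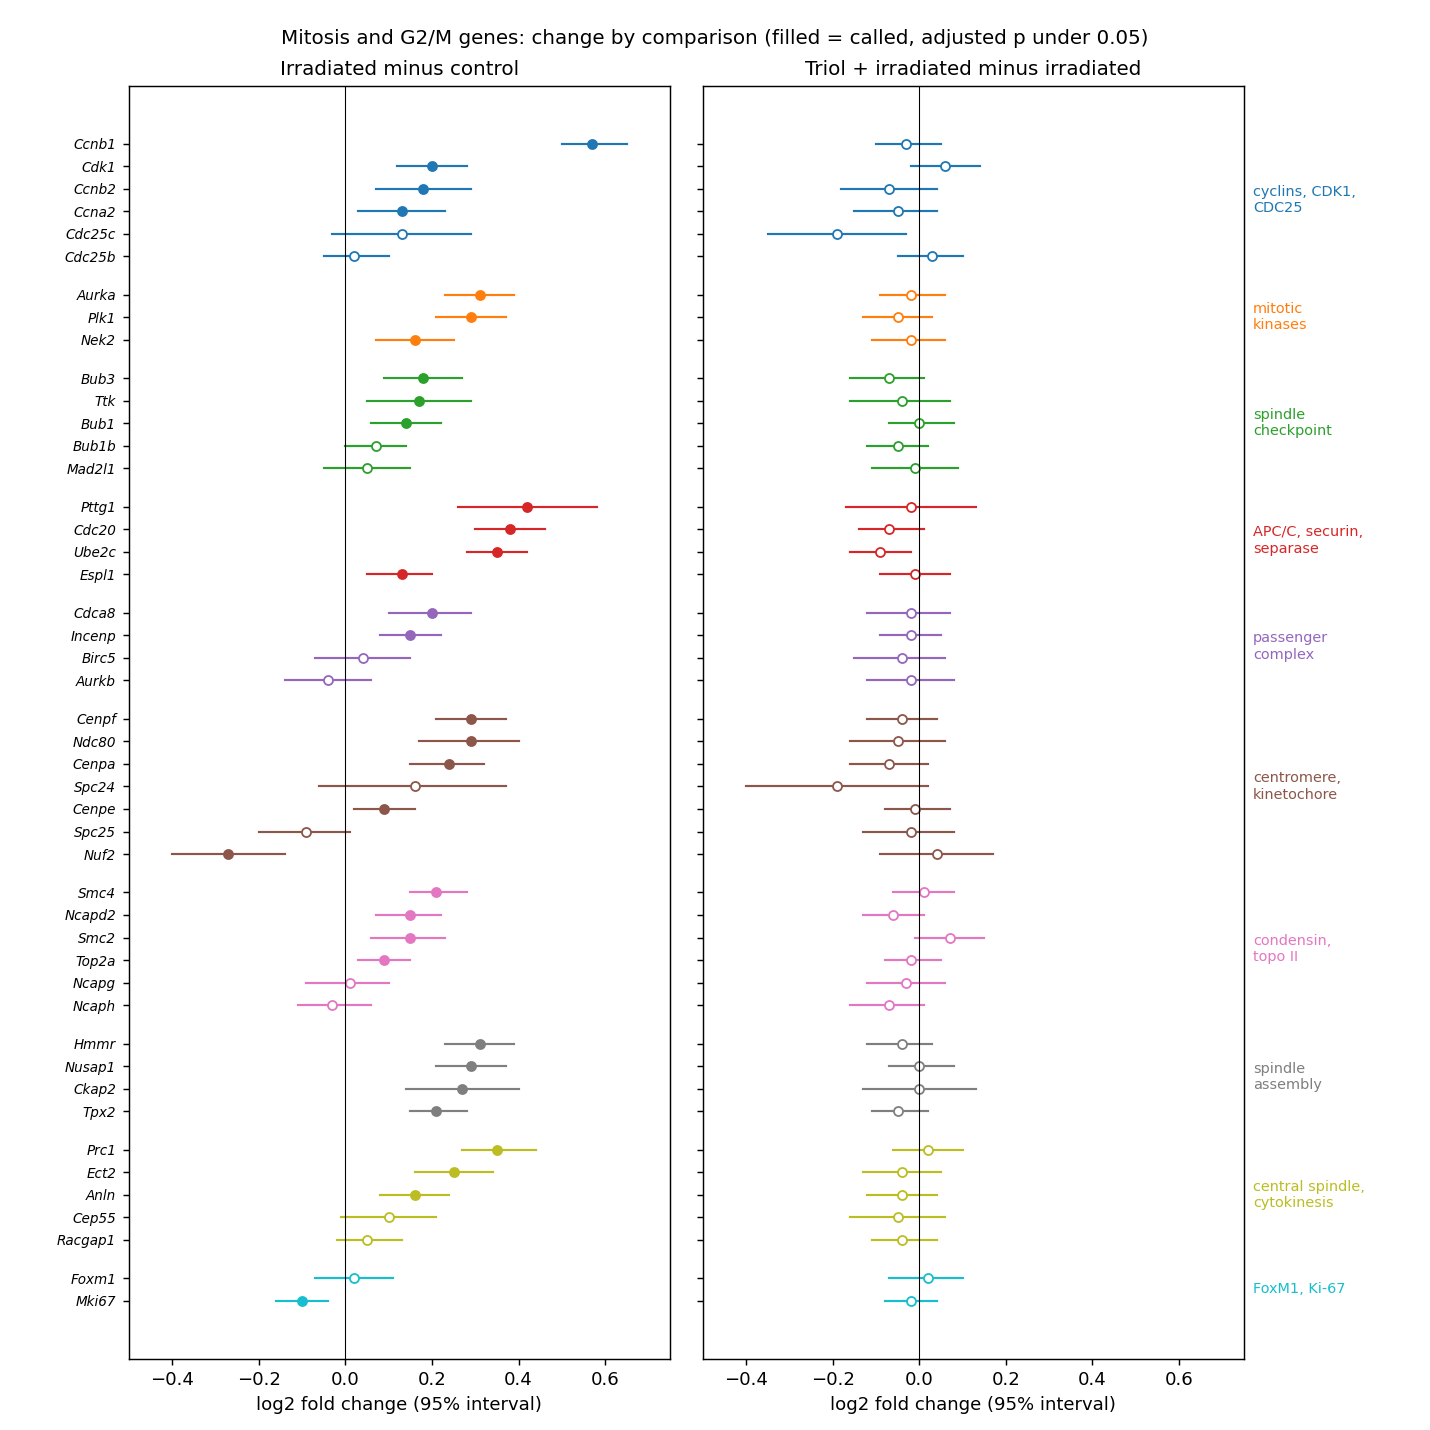
Log2 fold change with its 95% interval for each of the 46 genes, grouped by role, for irradiated against control cells (left) and triol-treated irradiated against irradiated cells (right), with filled points for genes that passed the test. On the left the points run from -0.27 (Nuf2) to 0.57 (Ccnb1) and 41 lie above 0, and on the right they run from -0.19 to 0.07.

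The largest rise was that of Ccnb1 (GRCm38 chr13:100778650-100786570), which encodes cyclin B1, the activating partner of CDK1. Its normalised counts per 1000000 (CPM) were 227, 230 and 254 in the control libraries, 359, 336 and 363 in the irradiated ones and 349, 334 and 356 in the triol ones. The control values did not overlap with those of either irradiated group. The rise was 1.49-fold, a log2 fold change of 0.57 (SE 0.04, edgeR adjusted p = 2.0e-15). Of the 2489 bp of its longest annotated transcript, 51.9% match 4 other mouse genes closely (Gm12856, Gm8416, Ccnb1-ps and Gm7483), so its level is uncertain as that of a single gene. For the other genes that share was at most 7.62% (Mad2l1). Securin, the inhibitor of separase, is encoded by Pttg1 (chr11:43420250-43426251). Pttg1 stood at 19.7, 19.1 and 18.7 CPM in control, 28.2, 25.3 and 23.7 in irradiated and 25.4, 24.4 and 26.0 in triol libraries, again without overlap with control. Its rise was 1.34-fold (log2 0.42, SE 0.08, edgeR adjusted p = 2.8e-05). Cdc20 (chr4:118432901-118437352) encodes the activator of the anaphase-promoting complex that the checkpoint restrains. Cdc20 was at 137, 136 and 139 CPM in control, 171, 182 and 184 in irradiated and 178, 165 and 170 in triol libraries, a rise by radiation of 1.30-fold (log2 0.38, SE 0.04, edgeR adjusted p = 5.6e-11). At the other end, Nuf2 (chr1:169497934-169531464), a subunit of the NDC80 complex that binds microtubules at the kinetochore, fell. Nuf2 was at 50.7, 50.6 and 59.3 CPM in control, 43.8, 42.0 and 47.2 in irradiated and 42.8, 47.9 and 46.4 in triol libraries. All 6 irradiated libraries lay below the 3 controls, and the log2 fold change by radiation was -0.27 (SE 0.06, edgeR adjusted p = 6.2e-04). Mki67 (chr7:135689784-135716361), whose protein Ki-67 coats mitotic chromosomes and serves as a marker of dividing cells, also fell. Mki67 was at 985, 1020 and 1050 CPM in control, 925, 932 and 982 in irradiated and 947, 905 and 943 in triol libraries (log2 -0.10 by radiation, SE 0.03, edgeR adjusted p = 0.0052). With scaling by library size alone the value for Mki67 was -0.07 and no longer passed (adjusted p = 0.067).

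The promoters of these 5 genes, the 3 with the largest rises and the 2 that fell, are shown to set their letters beside their changes. Each is the RefSeq window of 300 bases on GRCm38.p6, from 250 bases before the transcription start to 50 after it, read 5′ to 3′ on the minus strand, which is the strand of all 5 genes. Capitals mark matches to CCAAT and to the CHR (cell cycle genes homology region), searched as TTTGAA or TTCGAA, in either direction, so that CCAAT appears as ATTGG where it lies on the other strand. The windows are chr13:100786437-100786736 for Ccnb1, chr11:43425932-43426231 for Pttg1, chr4:118437294-118437593 for Cdc20, chr1:169531415-169531714 for Nuf2 and chr7:135716330-135716629 for Mki67.
Ccnb1: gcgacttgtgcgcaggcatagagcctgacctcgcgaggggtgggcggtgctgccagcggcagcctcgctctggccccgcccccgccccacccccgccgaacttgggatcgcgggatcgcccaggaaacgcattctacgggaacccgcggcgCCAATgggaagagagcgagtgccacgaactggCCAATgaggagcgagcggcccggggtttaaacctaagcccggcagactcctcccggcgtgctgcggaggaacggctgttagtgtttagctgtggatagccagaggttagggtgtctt
Pttg1: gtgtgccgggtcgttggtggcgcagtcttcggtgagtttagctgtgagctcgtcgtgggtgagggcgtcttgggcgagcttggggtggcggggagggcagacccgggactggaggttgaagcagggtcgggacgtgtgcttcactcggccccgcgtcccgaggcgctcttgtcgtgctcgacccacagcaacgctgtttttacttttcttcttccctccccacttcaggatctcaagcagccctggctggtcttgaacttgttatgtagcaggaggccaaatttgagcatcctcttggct
Cdc20: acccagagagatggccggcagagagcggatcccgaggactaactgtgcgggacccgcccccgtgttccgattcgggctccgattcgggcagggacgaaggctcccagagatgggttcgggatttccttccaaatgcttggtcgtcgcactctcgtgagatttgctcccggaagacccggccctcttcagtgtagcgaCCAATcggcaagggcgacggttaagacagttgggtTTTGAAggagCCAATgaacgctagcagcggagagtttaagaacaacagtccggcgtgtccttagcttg
Nuf2: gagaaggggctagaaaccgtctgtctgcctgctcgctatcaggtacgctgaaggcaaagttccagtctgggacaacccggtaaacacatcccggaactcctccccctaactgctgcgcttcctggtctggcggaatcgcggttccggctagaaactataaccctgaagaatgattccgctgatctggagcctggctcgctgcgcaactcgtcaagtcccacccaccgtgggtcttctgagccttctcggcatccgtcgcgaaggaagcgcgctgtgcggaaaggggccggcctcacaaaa
Mki67: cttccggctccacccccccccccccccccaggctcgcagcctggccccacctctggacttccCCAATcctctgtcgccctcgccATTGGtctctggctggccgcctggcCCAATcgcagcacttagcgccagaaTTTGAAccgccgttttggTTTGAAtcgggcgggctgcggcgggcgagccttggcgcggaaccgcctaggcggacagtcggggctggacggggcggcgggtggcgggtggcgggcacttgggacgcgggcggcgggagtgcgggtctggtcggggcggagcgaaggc

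In the Cdc20 window the CHR began 18 bases before the start, between CCAAT matches at 53 and 8 bases before it. The Ccnb1 window held CCAAT at 99 and 67 bases before the start and no CHR of these letters. The Mki67 window held CHR matches at 116 and 98 bases before the start and CCAAT matches at 188, 166 and 141. The windows of Pttg1 and Nuf2 held neither motif. The Pttg1 window lies wholly inside the annotated gene, so the sequence before the annotated gene start was not searched for Pttg1. RefSeq windows were at hand for 38 of the 46 genes, 42 windows in all, because some genes have several starts. A CHR was in 33 of the 42 (78.6%) and in 6316 of all 32851 windows of the table (19.2%). It began within 50 bases of the start in 69.0% of the mitotic windows and in 5.31% of all windows. CCAAT was in 32 of the 42 (76.2%, against 37.4% of all windows), and at least 2 matches were in 21 (50%, against 11.7%). CCAAT pairs that began 31 to 35 bases apart, as in Ccnb1, were in 9 of the 42 (21.4%, against 1.35%). Both motifs were in 29 windows, 69% of the mitotic ones against 7.52% of all. By gene, a CHR was in 22 of the 27 raised genes with a window, in 1 of the 2 that fell and in 6 of the 9 that did not pass the test. The 29 genes with a CHR match had a median log2 fold change by radiation of 0.18 (from -0.10 to 0.38). The 9 without a match had 0.09 (from -0.27 to 0.57), so the ranges overlapped widely. These 9 lack the searched letters in their windows, which does not show that they lack the element. They include Ccnb1, and Pttg1 with its incomplete search. These matches describe letters only and were not tested against the changes.

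Among the 6 genes of cyclins, CDK1 and CDC25 phosphatases, 4 rose and 0 fell, with a median log2 fold change of 0.15. Here and for the role groups below, the background is the 22.1% of all tested genes raised and 22.2% lowered. The role groups are small, and differences between them were not tested. Cdk1, the kinase that cyclin B activates, was at 106, 109 and 115 CPM in control, 127, 130 and 122 in irradiated and 131, 133 and 130 in triol libraries. All 6 irradiated libraries exceeded the controls, and the rise of Cdk1 by radiation was 0.20 on the log2 scale (adjusted p = 1.0e-04). The cyclins Ccnb2 (0.18, adjusted p = 0.0079) and Ccna2 (0.13, adjusted p = 0.033) rose as well. Ccna2, the cyclin of S phase and G2, was at 191, 202 and 216 CPM in control and 220, 209 and 236 in irradiated libraries, which overlap. The calls of Ccnb2 and Ccna2 were lost without control replicate 1, and that of Ccna2 also without control replicate 2, irradiated replicate 1 or irradiated replicate 3. Neither phosphatase passed: the log2 value was 0.02 for Cdc25b (95% interval -0.05 to 0.10) and 0.13 for Cdc25c (-0.03 to 0.29). The 3 mitotic kinases all rose. Aurka, the kinase of centrosome maturation, was at 127, 127 and 136 CPM in control, 159, 162 and 163 in irradiated and 161, 155 and 161 in triol libraries. The rise of Aurka by radiation was 0.31 on the log2 scale (adjusted p = 1.0e-08). Plk1, which acts from mitotic entry to cytokinesis, was at 102, 98.5 and 103 CPM in control, 121, 126 and 123 in irradiated and 122, 116 and 120 in triol libraries. The rise of Plk1 by radiation was 0.29 on the log2 scale (adjusted p = 1.6e-07). Nek2, a kinase of centrosome separation, rose by 0.16 (adjusted p = 0.0023). For all 3 kinases the irradiated libraries lay above the controls, as they did for 25.2% of all tested genes.

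The genes that carry out the release into anaphase gave the highest median of the role groups, 0.37, and all 4 rose. Ube2c, the ubiquitin-conjugating enzyme that starts chains for the anaphase-promoting complex, was at 169, 170 and 170 CPM in control, 220, 214 and 215 in irradiated and 210, 194 and 207 in triol libraries. Its rise by radiation was 1.28-fold (log2 0.35, SE 0.04, edgeR adjusted p = 5.9e-11), and the groups were well apart. Of the exonic bases of Ube2c, 22.8% overlap Tnnc2 on the other strand, the largest such overlap among the 46 genes, and the sources used here do not state the strand setting of the counting. Espl1, which encodes separase itself, rose by 0.13 (adjusted p = 0.0068), with irradiated libraries at 181, 192 and 204 CPM against 175, 175 and 179 in control, a call lost without irradiated replicate 3. In the spindle assembly checkpoint 3 of 5 genes rose, with a median of 0.14. The log2 values were 0.18 for Bub3 (adjusted p = 6.4e-04), 0.17 for the kinase gene Ttk (adjusted p = 0.015) and 0.14 for Bub1 (adjusted p = 0.0027). The call of Ttk was lost without control replicate 1 or control replicate 2. Bub1b, which encodes the checkpoint inhibitor BUBR1, gave 0.07 (-0.00 to 0.14), and Mad2l1, which encodes MAD2, gave 0.05 (-0.05 to 0.15), and neither passed. Bub1b passed as raised with upper quartile scaling, with scaling by library size alone and without control replicate 3.

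The chromosomal passenger complex, which corrects faulty attachments and later directs cytokinesis, had 2 of 4 genes raised and 0 lowered. The scaffold gene Incenp (0.15, adjusted p = 4.0e-04) and the borealin gene Cdca8 (0.20, adjusted p = 8.4e-04) rose. The kinase gene Aurkb was at 81.1, 84.7 and 86.5 CPM in control and 83.4, 77.9 and 84.4 in irradiated libraries, which overlap (log2 -0.04, -0.14 to 0.06). Birc5, which encodes survivin, gave 0.04 (-0.07 to 0.15). At the centromere and kinetochore 4 of 7 genes rose and 1 fell. Cenpf, a large corona protein, rose by 0.29 (adjusted p = 1.2e-07), from 190, 208 and 218 CPM in control to 245, 250 and 261 in irradiated libraries. Cenpa, the histone variant that marks centromeres, rose by 0.24 (adjusted p = 2.6e-05). Cenpe, a kinetochore motor, rose by 0.09 (adjusted p = 0.040), with overlapping libraries. That call was lost in the runs without control replicate 1 or 2 or any of the irradiated replicates, with DESeq2 and with no filter on low counts. The 4 subunits of the NDC80 complex did not share a direction. Ndc80 rose by 0.29 (adjusted p = 5.7e-05), from 52.5, 52.7 and 60.1 CPM to 68.3, 62.6 and 70.6, while its direct partner Nuf2 fell. Spc24 gave 0.16 (-0.06 to 0.37) and Spc25 gave -0.09 (-0.20 to 0.01), and neither passed. The Spc25 libraries still stood apart, at 60.3, 61.5 and 60.9 CPM in control and 57.0, 55.0 and 59.3 in irradiated cells.

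Of the 6 genes of condensin and topoisomerase II, which compact and untangle chromosomes, 4 rose and 0 fell. Smc4 (0.21, adjusted p = 1.5e-06), Smc2 (0.15, adjusted p = 0.0030) and Ncapd2 (0.15, adjusted p = 9.1e-04) rose, whereas the other condensin I subunits gave 0.01 (Ncapg, -0.09 to 0.10) and -0.03 (Ncaph, -0.11 to 0.06). Top2a was at 499, 511 and 535 CPM in control, 541, 531 and 573 in irradiated and 548, 539 and 541 in triol libraries. The control and irradiated values of Top2a overlap, with a rise of 0.09 (SE 0.03, edgeR adjusted p = 0.018). That call was lost without control replicate 1 (adjusted p = 0.14), control replicate 2 (adjusted p = 0.070) or irradiated replicate 3 (adjusted p = 0.19). All 4 spindle assembly genes rose, where 22.1% of all tested genes did, with a median of 0.28. Hmmr, a microtubule-binding spindle protein, was at 193, 211 and 219 CPM in control, 253, 251 and 271 in irradiated and 260, 243 and 248 in triol libraries (log2 0.31 by radiation, adjusted p = 1.8e-08). Nusap1 (0.29, adjusted p = 6.7e-08), Ckap2 (0.27, adjusted p = 8.4e-04) and the Aurora A activator Tpx2 (0.21, adjusted p = 5.8e-07) rose with libraries apart from control. In the central spindle and cytokinesis group 3 of 5 rose. Prc1, which bundles the antiparallel microtubules of the central spindle, was at 111, 126 and 125 CPM in control, 156, 153 and 155 in irradiated and 163, 151 and 156 in triol libraries (log2 0.35 by radiation, SE 0.04, adjusted p = 3.9e-09). Ect2, the exchange factor that activates RhoA at the division plane, rose by 0.25 (adjusted p = 1.1e-05) and the ring protein gene Anln by 0.16 (adjusted p = 0.0015). Cep55 (0.10, -0.01 to 0.21) and Racgap1 (0.05, -0.02 to 0.13) did not pass, although Cep55 passed with scaling by library size alone.

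Foxm1, the transcription factor of many of these genes, was at 89.4, 90.8 and 86.9 CPM in control, 88.3, 92.3 and 90.8 in irradiated and 92.9, 88.9 and 93.0 in triol libraries. The 3 groups of Foxm1 values overlap, and its log2 fold change by radiation was 0.02 (-0.07 to 0.11, adjusted p = 0.71). The interval excludes changes the size of those of Ccnb1 or Cdc20. Of all 46 genes, 12 had a 95% interval for radiation that lay wholly between -0.2 and 0.2 on the log2 scale, or 26.1%, near the 24.9% of all tested genes.

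**Figure D2:**
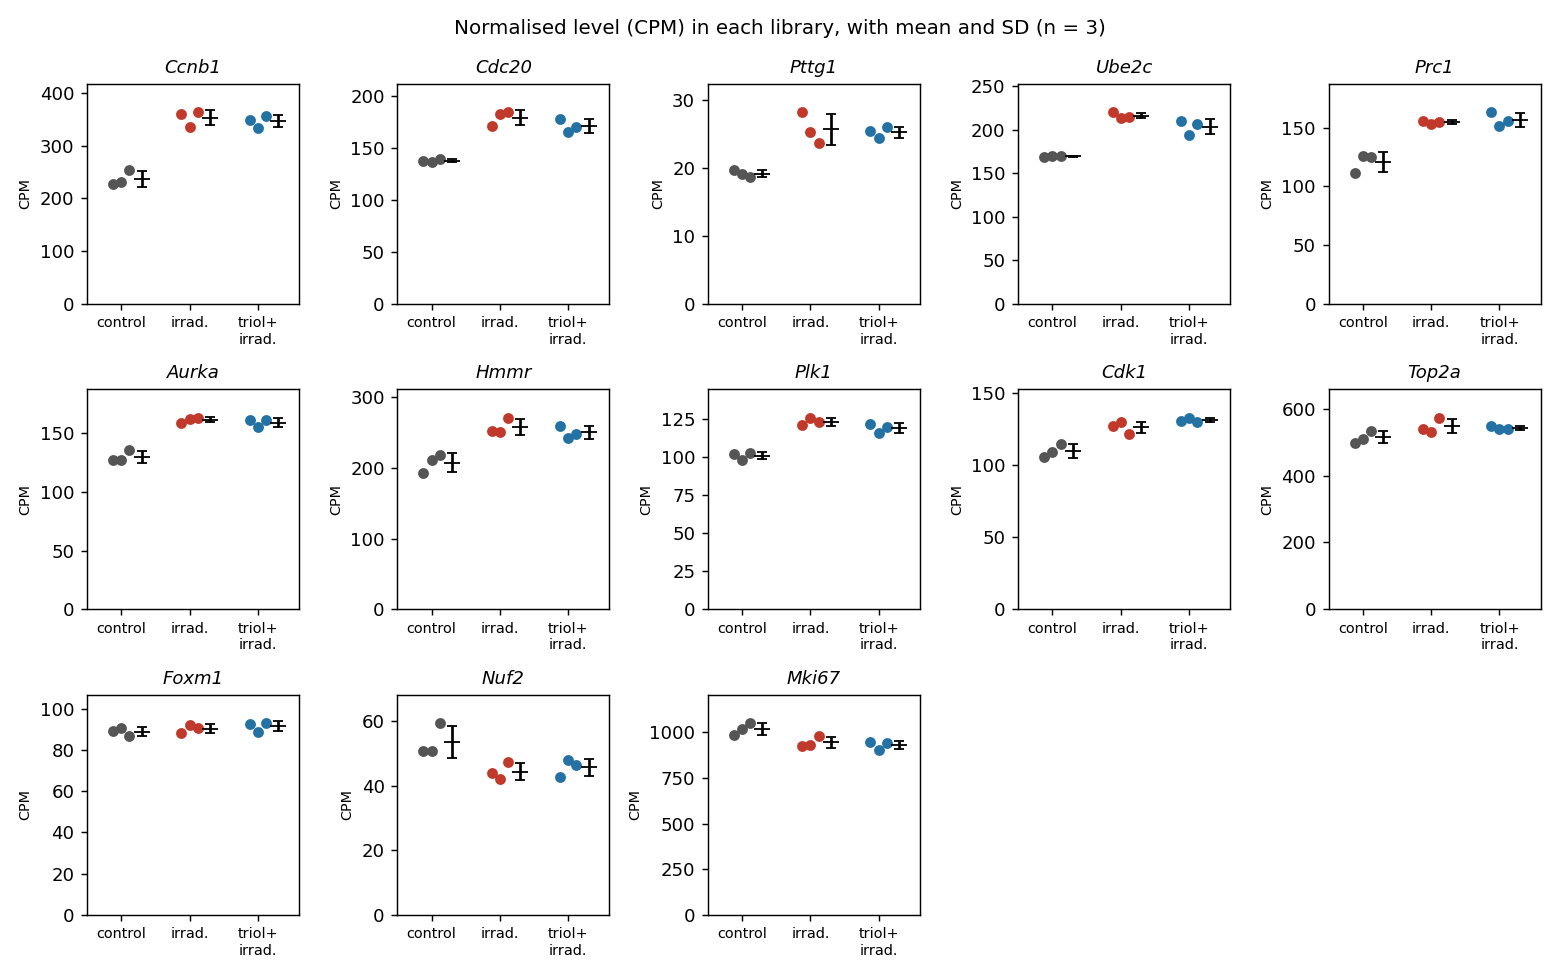
CPM (linear axis from 0) of 13 of the mitotic genes in each of the 9 libraries, with the mean and SD of each group of 3. Ccnb1 stands at 227 to 254 in control and at 336 to 363 in irradiated libraries, while Foxm1 stays between 86.9 and 93.0 in all 9 and Nuf2 and Mki67 are lower in irradiated libraries.

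Levels can be compared between genes only per length, here as control CPM per kb of all annotated exonic sequence of a gene. That length can exceed any single transcript. For Ccnb1 it was 4217 bp against 2489 bp for the longest transcript, and for Mki67 both were 10061 bp. The order of the genes therefore depends in part on the annotation. On that scale the genes ran from 4.25 (Cdc25c) and 4.32 (Spc24) to 81.7 (Tpx2) and 101 (Mki67), with a median of 23.1. Cdc20 (73.5) and Ube2c (65.2) were among the most abundant, and Ccnb1 ranked 8 with 56.2 in control and reached 83.6 in irradiated cells. Pttg1, with the largest rise after Ccnb1, stood at 9.59, close to the low end. Without Mki67 the other genes took 0.585%, 0.607% and 0.633% of all counts in control, 0.703%, 0.698% and 0.725% in irradiated and 0.707%, 0.684% and 0.689% in triol libraries.

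Within the control group the genes varied together from library to library. Taken over the 46 genes, the median difference from the mean of the control libraries was -0.05, -0.01 and 0.06 in control replicates 1, 2 and 3 on the log2 CPM scale, where the median of all genes was 0.00 to 0.01 over the 9 libraries. Control replicate 1 was the lowest of its group for 33 genes and control replicate 3 the highest for 36. The same median was 0.16, 0.16 and 0.19 in the irradiated and 0.15, 0.12 and 0.13 in the triol libraries, so the gap between control replicate 3 and the nearest irradiated or triol library was still positive. The number of genes above the control mean was 5, 21 and 43 in control, 39, 40 and 41 in irradiated and 37, 37 and 36 in triol libraries. By that count control replicate 3 lay with the irradiated libraries, but its differences were smaller. Over the runs that each left out a control or irradiated library, between 26 and 32 genes were called raised by radiation.

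**Figure D3:**
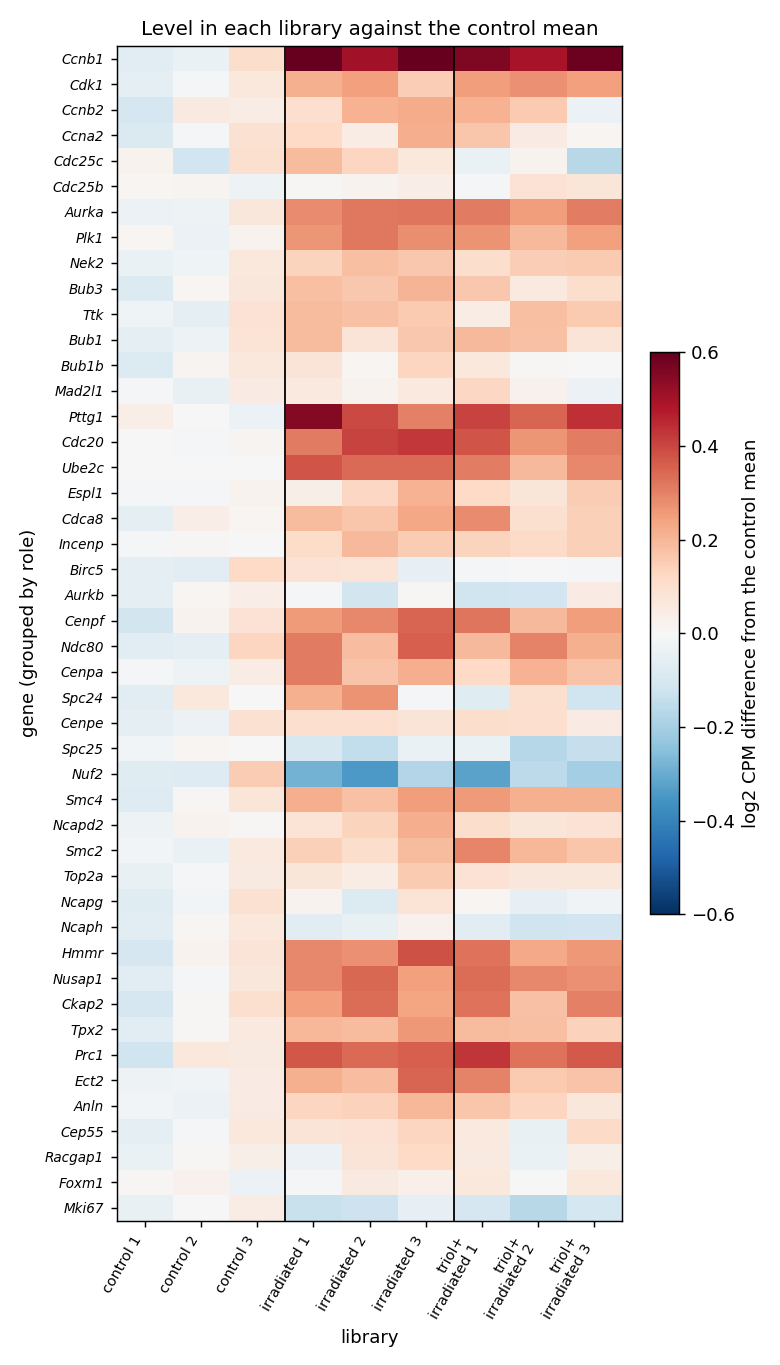
Heat map of the log2 CPM difference from the control mean for the 46 genes (rows, by role) in the 9 libraries (columns). The irradiated and triol libraries, with medians of 0.12 to 0.19, are higher than the control libraries (-0.05 to 0.06) in most rows, and the Nuf2 row runs the other way.

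Genes of related function that moved apart were set against each other within each library, where depth cancels. The uncertainty from the near copies of Ccnb1 does not cancel in this way. The 4 pairs were chosen after their values were seen, so the ratios describe these libraries, and with 3 against 3 libraries the exact two-sided permutation test cannot give a p below 0.1. Ndc80 had 1.03, 1.04 and 1.01 reads per Nuf2 read in control, 1.56, 1.49 and 1.49 in irradiated and 1.47, 1.41 and 1.37 in triol libraries. The radiation difference in that ratio was 0.56 on the log2 scale and the triol difference -0.09, each with exact permutation p = 0.1. Aurka had 1.57, 1.50 and 1.58 reads per Aurkb read in control, 1.90, 2.09 and 1.93 in irradiated and 2.09, 1.99 and 1.85 in triol libraries. Ccnb1 had 1.18, 1.14 and 1.17 reads per Ccna2 read in control, 1.63, 1.6 and 1.54 in irradiated and 1.53, 1.59 and 1.74 in triol libraries. Smc4 had 2.51, 2.52 and 2.53 reads per Ncaph read in control, 3.07, 2.94 and 2.95 in irradiated and 3.15, 3.17 and 3.16 in triol libraries. In all 4 ratios the control libraries lay below all 6 irradiated ones, with log2 differences by radiation of 0.35 for Aurka to Aurkb, 0.45 for Ccnb1 to Ccna2 and 0.24 for Smc4 to Ncaph (exact permutation p = 0.1 each, 0.12 adjusted over 12 tests). Triol and irradiated libraries overlapped in the Aurka and Ccnb1 ratios (log2 0.00 and 0.02, exact permutation p = 0.9 each). They did not overlap in the Smc4 ratio, higher with triol by 0.08, nor in the Ndc80 ratio, lower with triol (exact permutation p = 0.1 each). That is the smallest p this test can give. How often the ratios of other gene pairs separate was not counted, so no effect of triol or radiation is drawn from these separations.

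**Figure D4:**
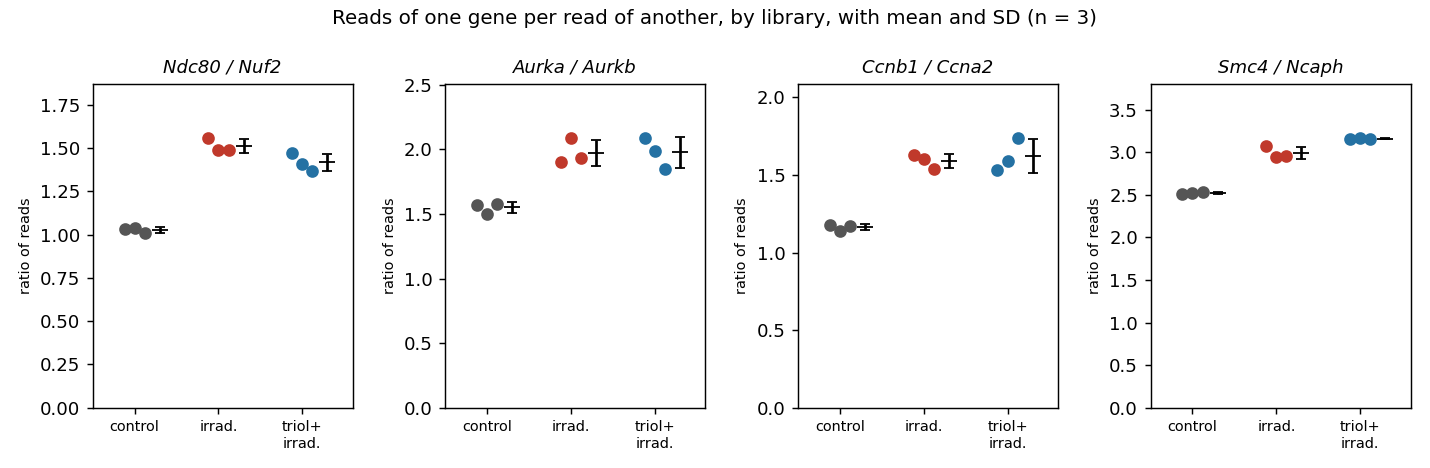
Reads of the first gene per read of the second for 4 pairs of mitotic genes in each of the 9 libraries, by group. Control values are tight and lie below those of both irradiated groups in each panel, for example 1.01 to 1.04 against 1.37 to 1.56 for Ndc80 to Nuf2.

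Whether triol treatment before irradiation changed the expression of these genes was asked by setting triol-treated against irradiated cells, both having received 10 Gy. In edgeR's quasi-likelihood test 0 of the 46 genes rose and 0 fell, where 0.0974% of all tested genes were raised and 0.00885% lowered, that is 11 and 1 genes. The count was also 0 with limma-voom and with DESeq2, whose adjusted values cover 31 of the 46. At an unadjusted p under 0.05 there were 2 genes, or 4.35%, where 7.66% of all tested genes had one, so the 2 are no more than the background share. Ube2c gave -0.09 (-0.16 to -0.02, adjusted p = 0.50) and Cdc25c, the phosphatase gene of mitotic entry, gave -0.19 (-0.35 to -0.03, adjusted p = 0.55). Cdc25c was at 23.9, 22.8 and 21.8 CPM in irradiated and 20.3, 21.2 and 18.6 in triol libraries, beside 21.1, 19.2 and 22.3 in control. The triol libraries lay below all irradiated libraries for 3 genes (Cdc25c, Ube2c and Ncaph) and above them for 0, where 5.88% of all tested genes were lower and 7.35% higher in this sense.

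Most estimates were slightly below 0 with triol, by an amount that single libraries moved. They were below 0 for 37 of the 46 genes, or 80.4%, and for 49.2% of all tested genes, and their median was -0.03 against 0.00. The median was -0.01 without irradiated replicate 3 or triol replicate 2 and -0.05 without triol replicate 1. The genes vary together between libraries, as in the control group, so these 37 are not independent of each other. Estimates ran from -0.19 (Cdc25c and Spc24) to 0.07 (Smc2). The 95% interval lay wholly between -0.2 and 0.2 for 44 of the 46 genes (95.7%), all but Cdc25c and Spc24, and for 53.6% of all tested genes. The median absolute log2 value was 0.04 for the 46 genes and 0.05 for all tested genes. These shares depend on the widths of the intervals as well as on the sizes of the changes. For Ccnb1 the interval was -0.10 to 0.05, for Pttg1 -0.17 to 0.13, for Cdc20 -0.14 to 0.01 and for Nuf2 -0.09 to 0.17. For these 4 genes the bounds lie closer to 0 than their own log2 fold changes by radiation (0.57, 0.42, 0.38 and -0.27).

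Triol-treated irradiated cells were also set against control cells, a comparison that shares the control libraries with the first and the triol libraries with the second. Here 26 of the 46 genes rose and 3 fell (Nuf2, Mki67 and Ncaph), where 21.5% of all tested genes were raised and 21.7% lowered, and the median log2 fold change was 0.12. Ccnb1 gave 0.55 (adjusted p = 6.2e-15) beside 0.57 by radiation alone, Pttg1 0.40 beside 0.42, Prc1 0.37 beside 0.35, Cdc20 0.32 beside 0.38 and Ube2c 0.26 beside 0.35. Cdk1 gave 0.26 beside 0.20 and Smc2 0.22 beside 0.15, so their estimates were further from control with triol, within the intervals given by the direct comparison (-0.02 to 0.14 and -0.01 to 0.15). Nuf2 gave -0.23 (adjusted p = 0.0026) and Mki67 -0.12 (adjusted p = 7.0e-04). Ncaph gave -0.10 (adjusted p = 0.040), from 113, 119 and 124 CPM in control to 113, 109 and 110 with triol, and this call was lost with DESeq2, upper quartile scaling, scaling by library size alone and without control replicate 2 or 3 or triol replicate 2 or 3. Ccnb2, Ccna2, Ttk, Cenpe and Top2a, called for radiation alone, gave 0.11, 0.07, 0.13, 0.08 and 0.07 and did not pass. Their direct triol differences, from -0.07 to -0.01, did not pass either, so no difference between irradiated cells with and without triol was shown for them.

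Other genes of mitosis and of its control, from lists that do not include the 46, are given here against the background of 22.1% raised and 22.2% lowered by radiation. Of 17 core subunits and regulators of the anaphase-promoting complex 3 rose (17.6%) and 2 fell (11.8%), neither share above that background, with a median of 0.03 where all tested genes had 0.01. Ube2s, the enzyme that extends ubiquitin chains after Ube2c, rose from 109 ± 4.07 to 138 ± 5.39 CPM (SD, n = 3, log2 0.34, edgeR adjusted p = 2.9e-09), and the catalytic core gene Anapc2 fell by 0.24 (adjusted p = 7.8e-07). Of 31 further kinetochore genes 13 rose (41.9%) and 1 fell (3.23%), with a median of 0.16. Among them Cenpw (0.56, adjusted p = 9.0e-05) and Ska3 (0.42, adjusted p = 4.0e-07) rose, and Cenpx, another histone-fold subunit of the inner kinetochore, fell by 0.50 (adjusted p = 6.8e-05). Of 15 cohesin genes 6 rose (40%) and 1 fell (6.67%), with sororin (Cdca5) at 0.46 (adjusted p = 8.5e-07) and the centromeric protector shugoshin (Sgo1) at 0.25 (adjusted p = 7.9e-04). Of the 3 condensin II genes 0 rose and 1 fell, Ncaph2 (-0.14, adjusted p = 0.0016). Of 27 spindle pole and microtubule nucleation genes 5 rose and 5 fell, 18.5% each way and near the background, with Haus2 at 0.32 (adjusted p = 1.4e-04) and the γ-tubulin complex gene Tubgcp2 at -0.33 (adjusted p = 2.1e-05). Of 11 cytokinesis ring and abscission genes 2 rose (18.2%), among them citron kinase (Cit, 0.23, adjusted p = 0.0016), and 3 fell (27.3%), among them Vps4a (-0.20, adjusted p = 5.8e-04).

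Of 20 genes that control mitotic entry and exit 9 rose (45.0%) and 2 fell (10.0%), with a median of 0.16. They included Cdkn1a, which encodes the p53 target and CDK inhibitor p21, at 64.8 ± 1.01 CPM in control, 85.6 ± 5.88 in irradiated and 91.6 ± 4.32 in triol cells (SD, n = 3, log2 0.40 by radiation, edgeR adjusted p = 1.2e-08). Chek1, the checkpoint kinase that restrains CDC25, rose by 0.35 (adjusted p = 4.2e-05), and Cks2, a small subunit of CDK complexes, by 0.34 (adjusted p = 5.6e-05). Of 11 MuvB and Myb genes 4 rose (36.4%) and 3 fell (27.3%). Mybl2, which encodes B-MYB, rose from 172 ± 1.85 to 217 ± 7.14 CPM (SD, n = 3, log2 0.34, edgeR adjusted p = 1.7e-10), while the MuvB subunit gene Lin37 (-0.33, adjusted p = 0.018) and the pocket protein gene Rbl1 (-0.30, adjusted p = 1.9e-06) fell. With triol against irradiated cells 0 genes of these lists were called by edgeR, and the lists' medians lay between -0.03 and 0.01.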

How the data were processed

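RNA of 9 BV2 libraries was counted per gene. The authors deposited raw counts, whole reads per gene without normalisation. Named in the submitters' processing notes are STAR 2.7.1a, featureCounts (Subread 1.6.3), fastp 0.18.0, FastQC and the build GRCm38. The sources used here do not state the annotation release, the strand setting or how multi-mapping reads were treated. Groups and replicate numbers come from the sample titles.

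Testing was by edgeR 4.0.16 (quasi-likelihood F test, two-sided, R 4.3.3) after filterByExpr and TMM, with robust dispersion in 1 fit over 9 libraries (6 residual degrees of freedom). P-values were adjusted by Benjamini-Hochberg over 11295 genes, with a threshold of 0.05, and this is the source of every adjusted p for which no other tool is given. The test beyond 1.2-fold was glmTreat. CPM are TMM-normalised, and RPM use the total count. Intervals are 95%. The biological coefficient of variation was 3.18%. The procedure was also run on simulated data, with few genes changed, in balance up and down, and the same spread for all genes. That setting does not check the scaling, or genes that vary together, in these data. The genes and lists were chosen with earlier results of these data known. Values in every library are given for members with a called log2 change by radiation of at least 0.3 in size, for Nuf2, and for Ccnb1, Cdk1, Plk1, Aurka, Cdc20, Top2a, Foxm1 and Mki67. Other values shown, such as those of Cdc25c, Ndc80 or Ccna2, were chosen after they were seen. All 21951 gene IDs were found in GENCODE M21 (GRCm38), which gave coordinates, and near copies were sought with blastn (at least 95% identity over 100 bp). Alternatives were DESeq2 1.42.0, limma-voom (limma 3.58.1), other scalings, no filter, 2 groups only, a replicate block and leaving out each library.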

Additional observations from a re-analysis of the deposited data

How the results depend on the processing

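The count of mitotic genes raised by radiation was 30 to 33 with DESeq2, limma-voom, other scalings, no filter or 2 groups only, and 26 to 32 when single libraries were left out (31 in the reported fit). The genes lowered were 1 with scaling by library size only, which lost Mki67, and 2 in every run that left out a library. Genes past 1.2-fold numbered 5 with upper quartile scaling, 6 with library size only, 2 with no filter and 2 to 4 without single libraries, against 3. These scalings moved all genes together: 2919 rose and 2116 fell with upper quartile scaling, 3034 and 2043 with library size only, and 2498 and 2505 with TMM. The median log2 fold change by radiation was 0.14 to 0.18 without single libraries, that by triol against irradiated cells -0.05 to -0.01, and that of triol against control 0.11 to 0.13. Against control, triol-treated cells had 21 to 29 raised and 2 to 4 lowered genes without single libraries. The number called for triol against irradiated cells was 0 in every run. Of the values of the 13 named genes under these alternatives, 527 kept direction and side of the threshold. In 6, none past the threshold, leaving out a library turned the sign. Over such runs, triol against irradiated cells gave -0.08 to 0.04 for Pttg1 (turned without irradiated replicate 1), -0.00 to 0.04 for Foxm1 (irradiated 1), -0.04 to 0.02 for Top2a (irradiated 3), -0.04 to 0.00 for Mki67 (irradiated 3) and -0.01 to 0.04 for Prc1 (triol 1), and radiation gave -0.00 to 0.04 for Foxm1 (control 3). The other exceptions were 4 weaker values (Mki67 with library size only, Top2a without 3 single libraries) and 6 of Top2a in triol against control that passed. No shared effect of the replicate number was visible. Deviations of same-numbered libraries correlated from -0.0522 to 0.0442 over genes, within the range of differently numbered ones (-0.0680 to 0.0559). That cannot show how the libraries were handled, and the labels do not say whether a number marks a shared culture or day. With the replicate block 31 genes were raised and 2 lowered by radiation, and 27 and 3 in triol against control. The cause of these shifts was not tested. Low counts limit Spc24, Pttg1 and Cdc25c most, at 10.2 to 28.2 CPM.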

Other observations

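Genes of DNA replication and of the G1/S transition, the earlier step of the same cycle, numbered 40 among those tested. By radiation 13 rose (32.5%) and 4 fell (10.0%), where 22.1% and 22.2% of all tested genes did. Their median log2 fold change was 0.05. The 46 mitotic genes had 31 up, 2 down and a median of 0.16. The difference between the lists was not tested. Mcm10, a factor of replication origin firing, rose from 65.7 ± 0.734 to 108 ± 5.24 CPM (SD, n = 3, log2 0.71, edgeR adjusted p = 1.7e-16), a larger estimate than that of Ccnb1. Ccne1, which encodes cyclin E1 of the G1/S step, rose from 22.8 ± 0.151 to 33.8 ± 1.74 CPM (log2 0.56, edgeR adjusted p = 4.2e-08). Rfc2, a subunit of the clamp loader, fell from 88.7 ± 6.91 to 64.6 ± 3.32 CPM (log2 -0.46, edgeR adjusted p = 1.6e-09). In triol-treated against irradiated cells 0 of the 40 were called by edgeR and 2 (5.00%) had an unadjusted p under 0.05, against 7.66% of all tested genes. Mcm10 was at 103 ± 4.62, Ccne1 at 32.4 ± 2.98 and Rfc2 at 62.1 ± 2.21 CPM in triol-treated cells.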
